A study of Homo sapiens with 14 samples.

Results

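To examine whether *SF3B1* mutation is accompanied by altered splicing of the factors that work beside SF3B1 at the 3′ end of the intron, the splice events of 10 genes were taken from the HEK293T RNA-Seq table: *SUGP1*, *SUGP2*, *GPATCH8*, *RBM17*, *DHX15*, *SF1*, *U2AF1*, *U2AF2*, *PUF60* and *U2SURP*. An event entered when the mean of its WT and MT junction reads was at least 10. This left 113 of the 94061 events that met this minimum in the whole table, and they belonged to 9 of the 10 genes. HEK293T is a human embryonic kidney epithelial line. The comparison is between 3 libraries of the isogenic line with unmutated SF3B1 (K700K, called WT) and 3 libraries of the line that carries K700E at the endogenous locus (called MT), and neither was treated. The table lists splice events and no alleles, so K700E itself was not checked here. The number of clones behind each line is not given in the sources used here, and nothing in the labels says that the libraries came from separate cultures, so p-values measure only the spread between these libraries. "MT 1", "MT 2" and "MT 3" follow the order of the deposited columns. All mean MT reads given below are the authors' and cover 6 listed MT values, while the MT levels come from these 3.

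The 3′ end of an intron is read in steps. SF1 binds the branch point, U2AF2 the polypyrimidine tract and U2AF1 the AG at the intron's last bases, and PUF60 also binds pyrimidine tracts. The U2 snRNP, of which SF3B1 is a core subunit, then replaces SF1 at the branch point. SUGP1 carries SURP domains and a G-patch, a short domain that activates DEAH-box helicases such as DHX15. SUGP2, GPATCH8 and RBM17 also carry a G-patch, and U2SURP is a SURP protein associated with the U2 snRNP. Hotspot mutations of SF3B1 are known for the use of cryptic 3′ sites a short way upstream of the usual site and for weakened binding of SUGP1.

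The inclusion level is the fraction of the longer or included form of an event, from 0 to 1. Of the 113 events, 78 were skipped exons, 15 alternative 3′ sites, 11 mutually exclusive exons, 5 alternative 5′ sites and 4 retained introns. *SF1* had 26 events, *SUGP2* 20, *SUGP1* 18, *GPATCH8* 14, *U2SURP* 12, *U2AF2* 11, *DHX15* 5, *PUF60* 4 and *RBM17* 3. The single *U2AF1* event of the table had a mean of 1.08 junction reads and did not enter, and a mutually exclusive exon event of *U2AF1* was not analysed here. The events just inside the minimum were an alternative 3′ site of *GPATCH8* with 10.3 reads and one of *SUGP1* with 10.8 reads. A test was fitted for 104 events. Another 8 had the same level in every library, and the *GPATCH8* 3′ site had no level in MT 2. Many events share a junction or an exon with another event of the same gene, so they are not independent measurements. As a check of the cell type, 4 of 6 markers of HEK293T cells had an event with at least 10 reads, against 0 of 8 markers of blood and B cells. The highest mean reads were 36 for *KRT8*, 117 for *KRT18*, 202 for *CDH2* and 3882 for *VIM*. *PAX2* reached only 3.17 reads and *NEFM* had no event.

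None of the 104 events passed the thresholds of an adjusted p under 0.05 and a difference above 0.1 (limma with Benjamini-Hochberg adjustment over 83581 events), where 0.0311% of all events did. The lowest adjusted p of the 104 was 0.369 (limma, Benjamini-Hochberg). The fit had little power for moderate differences, so an event that was not called was not shown to be unchanged. An unadjusted p under 0.05 was found for 7 of 104 events, beside 4.47% of all events. The WT and MT libraries did not overlap in 6 of the 104, beside 5.46% of all events, and 4 of those 6 also differed by more than 0.1, beside 1.73%. All 6 were lower in MT, and so were the 4; among all events, 3.15% were lower without overlap and 0.977% lower by more than 0.1. They lay in *SUGP1* (3 events), *SUGP2*, *SF1* and *U2SURP*. The median size of the difference was 0.00617 for the 104 events and 0.0137 for all events fitted. A difference of less than 0.05 was found for 88 of the 104, beside 69141 of the 83581 events. The counts of the 104 events were not tested against these shares.

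**Figure D1:**
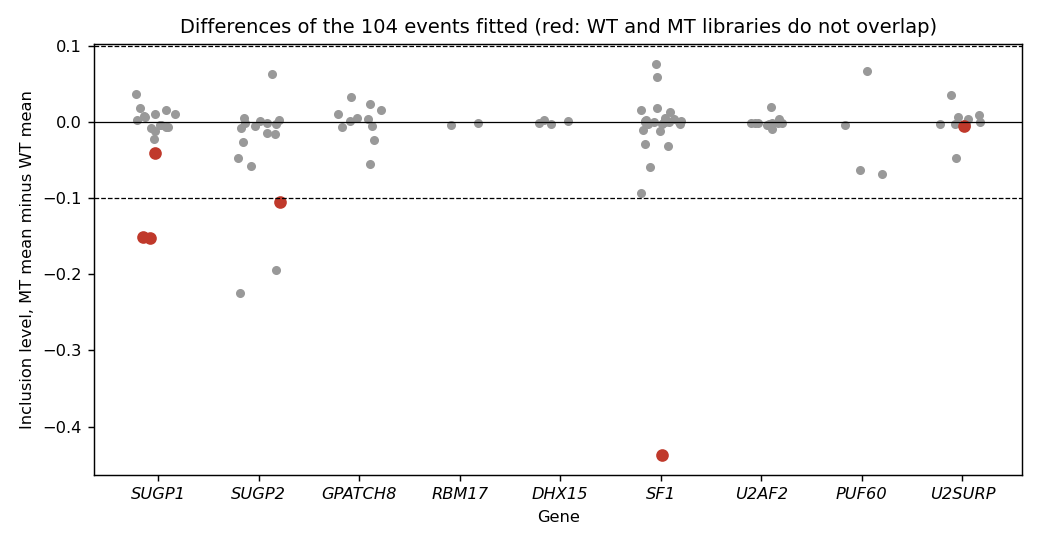
Each point is 1 of the 104 fitted events, placed by gene on the x axis, with the MT mean minus the WT mean of the inclusion level (a fraction) on the y axis, dashed lines at 0.1 on either side of 0, and red where the 3 WT and 3 MT libraries do not overlap. The 6 red points all lie below 0, the lowest being the *SF1* exon at -0.44, and no point lies above 0.1.

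The 2 lowest unadjusted p-values of the 104 events, neither of which passed after adjustment, belonged to alternative 3′ sites of *SUGP1*. *SUGP1* lies on the minus strand of chromosome 19 (chr19:19276018-19320509, GRCh38). Upstream sites precede exon 5, at 65 and 196 bases before its first base, and exon 7, at 55 bases, out of 14 exons of the main transcript. The reference sequence of the 5 sites is shown because the events differ only in which of them ends the intron. Each run gives the last 27 intron bases and the first 3 exon bases, and capitals mark the AG that ends the intron.
exon 5 site, chr19:19303845-19303874: accccagtactgacagcctccttaaAGttt
site 65 bases upstream of exon 5, chr19:19303910-19303939: caccccctctgtcgttgtggtccatAGaga
site 196 bases upstream of exon 5, chr19:19304041-19304070: agcctcacacacttctctcccacctAGtgt
exon 7 site, chr19:19302386-19302415: agcccagtactgacagcctgcttaaAGttt
site 55 bases upstream of exon 7, chr19:19302441-19302470: acttgttgcccttggggttcttagcAGaaa
The sites of exons 5 and 7 resemble each other: 25 of the 27 intron bases before them are identical (92.6%), and the exons themselves, both 124 bases long, match at 78 of 124 positions. Of the 20 intron bases before the AG, 11 are pyrimidines at exon 5 and 10 at exon 7. The upstream sites hold 14, 16 and 13, in the order of distance 65, 196 and 55. Over 5671 alternative 3′ site events of the table, the median is 14 pyrimidines for either kind of site, and 98.7% of upstream and 99.5% of downstream sites follow an AG. In the annotation (GENCODE 44), the upstream sites are used by 1, 2 and 1 of 15 *SUGP1* transcripts, none of them coding, and the sites of exons 5 and 7 by 4 and 6, of which 2 each are coding.

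At exon 5, the longer form that begins 65 bases upstream had levels of 0.136, 0.156 and 0.269 in WT and of 0.039, 0.039 and 0.026 in MT. The means were 0.187 ± 0.0717 and 0.0347 ± 0.00751 (SD, n = 3). Every MT library lay below every WT library, with WT 3 the highest. The difference of -0.15 had an unadjusted p of 0.000464 and an adjusted p of 0.369 (limma, Benjamini-Hochberg), so it did not pass the test. An exact permutation test gave 0.1, the smallest p that 3 against 3 libraries allow. The form that begins 196 bases upstream had levels of 0.143, 0.136 and 0.281 in WT against 0.046, 0.03 and 0.033 in MT, again without overlap (adjusted p = 0.426, limma).

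These events are not separate observations. Both are set against the same junction into exon 5, a 2001-base intron. In both, the inclusion reads hold reads across the first base of exon 5. Such reads cannot show whether an upstream site was used, or which, so the levels are not a measure of upstream site use alone. The junction into exon 5 had a mean of 42.7 reads in WT and 120 in MT, while the inclusion reads averaged 16 (WT) and 8.50 (MT) for the 65-base form and 18.7 (WT) and 9.50 (MT) for the 196-base form. Reads of the junction that ends at the 65-base site itself had means of 2 in WT and 0.167 in MT, so the 65-base site has little depth of its own. Most inclusion reads of the 65-base form therefore crossed the first base of exon 5. Reads of the junction that ends at the 196-base site were not counted separately. They could be derived from these means only if both forms count the same reads across the first base of exon 5. This was not checked. The choice between both upstream sites, with levels of 1, 0.619 and 0.826 for the farther site in WT and 1, 0.5 and 1 in MT, overlapped between the genotypes and rested on 17.3 and 4.17 reads.

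At exon 7, the form that begins 55 bases upstream, named after its values were seen, was less abundant still. Its levels were 0.041, 0.072 and 0.053 in WT against 0.021, 0.016 and 0.009 in MT, with means of 0.0553 and 0.0153. The libraries did not overlap, but the unadjusted p was 0.0749 and the difference of -0.04 was under the threshold of 0.1. Its inclusion reads had means of 5.00 in WT and 3.50 in MT, and those of the exon 7 junction 51.3 and 119. Most *SUGP1* events had more junction reads in MT, as given below. The part of either count in the lower level was therefore not tested.

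**Figure D2:**
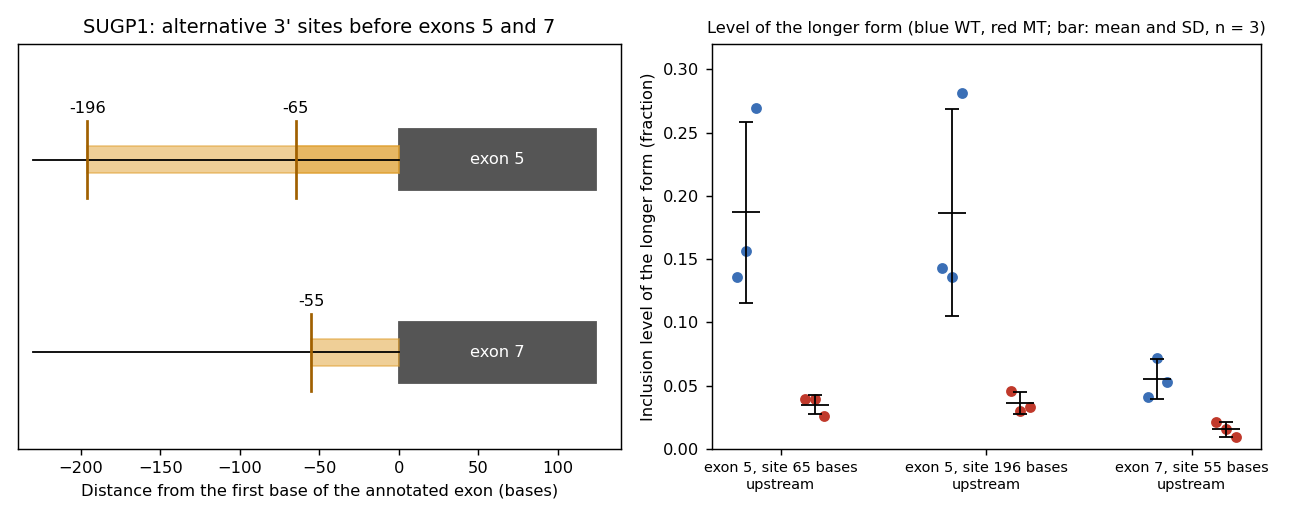
The left panel maps the upstream 3′ sites of *SUGP1* by distance in bases from the first base of exons 5 and 7 (dark boxes), with the added stretch shaded, and the right panel plots the inclusion level (fraction) of each longer form for the 3 WT (blue) and 3 MT (red) libraries with mean and SD. In each of the 3 events all MT points lie below all WT points, with MT means of 0.0347, 0.0363 and 0.0153.

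Read in the frame of the main *SUGP1* transcript, which encodes 645 residues, each added stretch leads to an early stop codon. The 65-base stretch follows codon 179 and gives a stop at codon 192, the 196-base stretch a stop at codon 223, and the 55-base stretch, after codon 254, a stop at codon 264. The G-patch of SUGP1 lies toward the C-terminal end of the protein, beyond these positions.

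The other 15 *SUGP1* events differed by -0.02 to 0.04. The upper end of this range and the lowest unadjusted p, 0.0829 (limma), belonged to a 42-base 3′ site stretch of exon 6. Its levels were 0.945, 1 and 0.945 in WT against 1 in each MT library, with 46.6 reads. The difference was close in size to that at exon 7 and of the opposite sign, but its exclusion reads averaged 0.667 in WT and 0 in MT. Another event of the same stretch, with 131 reads, had 0.983, 0.981 and 1 in WT against 0.971, 0.991 and 0.984 in MT, a difference of -0.006. Exon 5 as a whole was included at 1, 1 and 0.972 in WT against 1, 0.991 and 1 in MT. The mutually exclusive pair of exons 3 and 2 had levels of 0.541, 0.529 and 0.598 in WT against 0.61, 0.496 and 0.496 in MT, which overlapped.

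*SUGP1* also had more junction reads in MT. The ratio of MT to WT mean reads had a median of 1.86 over its 18 events, was above 1 in 17 of them, and ranged from 0.240, for the choice between the upstream sites of exon 5, to 2.63. Over all events of the table the median ratio was 1.02, with quartiles of 0.899 and 1.15, and 0.475% of the 7996 genes with at least 3 events had a median as high as that of *SUGP1*. Next came *SUGP2* at 1.33, *GPATCH8* at 1.20 and *DHX15* at 1.08, and the lowest were *U2SURP* at 0.910 and *U2AF2* at 0.899. The ratios rest on the authors' means, and those of MT cover all 6 listed MT values, so no error or test can be given. In bulk RNA, more cells that express a gene and more RNA per cell cannot be told apart. The junction reads of *SUGP1* were higher in MT while its levels of the longer forms at exons 5 and 7 were lower. Reads of the junctions into these exons enter both measures, and their part in those differences was not tested.

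**Figure D3:**
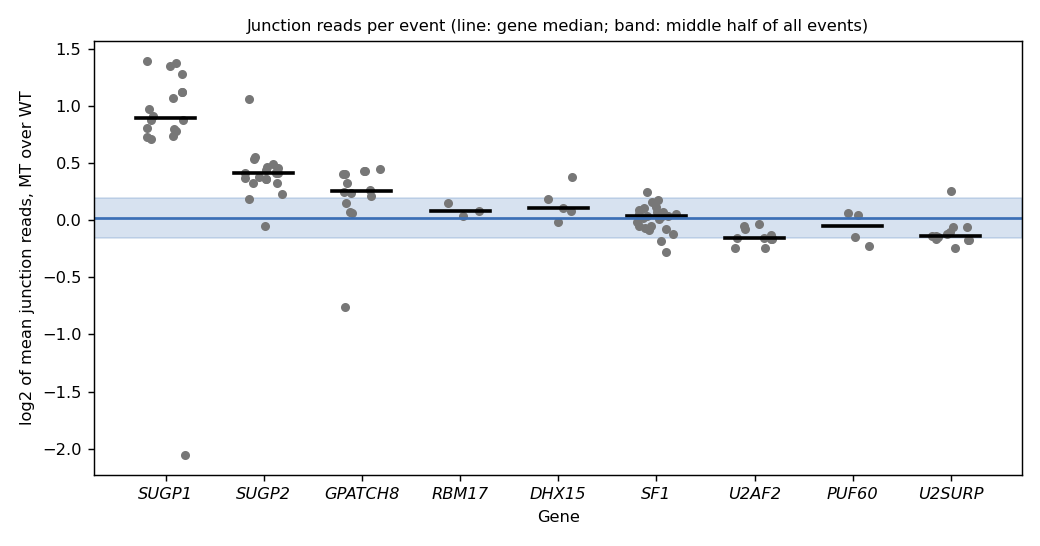
Each point is an event with at least 10 mean reads, placed by gene, with the log2 of its MT over WT mean junction reads on the y axis (a log scale), a black line at each gene's median, and a blue line and band for the median and quartiles of all events. The *SUGP1* points lie above the band except for the event at a ratio of 0.240, and the medians of the other genes from *RBM17* to *U2SURP* lie within or at the edge of the band.

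*SUGP2*, the paralog of *SUGP1* on the same chromosome (chr19:18990888-19034023, minus strand), had no event that passed the test. A retained intron of 2488 bases within the last exon of the main transcript (chr19:18991150-18993637, no coding bases) had levels of 1, 0.832 and 0.842 in WT against 0.714, 0.831 and 0.814 in MT. The groups were apart by only 0.832 against 0.831, and the difference of -0.10 (unadjusted p = 0.0333, adjusted p = 0.856, limma) was -0.05 without WT 1. Overlapping exons of 103 and 93 bases just upstream had the larger differences but overlapped between the genotypes. The 93-base exon was included at 0.659, 0.39 and 0.814 in WT and at 0.246, 0.218 and 0.724 in MT, a difference of -0.22 (unadjusted p = 0.0532). MT 3 resembled WT in this exon, while MT 1 and MT 2 lay below all WT libraries. The pair of exclusive exons with the most reads, which includes exon 7, had levels of 0.462, 0.551 and 0.59 in WT against 0.633, 0.558 and 0.601 in MT and overlapped. All *SUGP2* events with a WT mean level over 0.9 or under 0.1 differed by less than 0.05.

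In *GPATCH8*, a G-patch protein that had 11 fitted events, differences ranged from -0.05 to 0.03 and none of the events had an unadjusted p under 0.05. Its exclusive exon pair with exon 6 of 8 had levels of 0.55, 0.406 and 0.391 in WT against 0.552, 0.39 and 0.503 in MT. A 45-base exon was included at 0.17, 0.059 and 0.202 in WT and at 0.065, 0.065 and 0.138 in MT, with overlap. *RBM17* and *DHX15*, the helicase of the group, were spliced the same way in nearly all reads. The 2 fitted *RBM17* events differed by -0.003 and -0.001, and the 4 fitted *DHX15* events by -0.002 to 0.002 with 259 to 679 reads.

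*SF1*, the branch point binding protein, had the largest single difference. The gene lies on chromosome 11 (chr11:64764606-64778786, minus strand). Its main transcript ends with exon 13, and events of this region concern which 3′ site begins the last exon and whether a 205-base part of it (chr11:64765951-64766155) is spliced as an exon of its own. The sites at the start of both forms are shown in the same way as for *SUGP1*.
site of the 205-base exon and of exon 13, chr11:64766153-64766182: tgaccttgggcttctttaccaccccAGata
site 637 bases downstream, chr11:64765516-64765545: ttgcctctccccaaaccgggccgccAGgat
Spliced directly to an exon farther upstream, with a 180-base exon left out between them, the 205-base exon was included at 1, 0.846 and 0.6 in WT and at 0.481, 0.379 and 0.273 in MT. The means were 0.815 ± 0.202 and 0.378 ± 0.104 (SD, n = 3), every MT library lay below every WT library, and the difference of -0.44 had an unadjusted p of 0.00122 and an adjusted p of 0.513 (limma), short of the threshold. The event had means of only 18.0 reads in WT and 21.3 in MT. Its inclusion reads averaged 16.3 in WT and 11.2 in MT. The junction that leaves the 205-base exon, which transcripts with the 180-base exon can share, had 15.7 and 10.2 reads. The junction that enters it directly, with the 180-base exon left out, had only 0.667 and 1 reads. The level is therefore not the inclusion among transcripts that lack the 180-base exon.

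The exclusion reads of this event were those of a 1673-base intron (chr11:64765519-64767191) that skips both the 205-base and the 180-base exon. This junction had a mean of 1.67 reads in WT and 10.2 in MT, the latter over all 6 listed MT values. It is shared with an alternative 3′ site and with the 180-base exon. The alternative 3′ site had levels of 1, 0.986 and 0.97 in WT against 0.912, 0.898 and 0.971 in MT (unadjusted p = 0.00253), and the 180-base exon 1, 0.992 and 0.985 in WT against 0.962, 0.934 and 0.988 in MT (unadjusted p = 0.00576). In both, MT 3 lay within the WT range, although its level of the 205-base exon, 0.273, was the lowest of all libraries. The shared junction alone therefore does not account for the level in MT 3. These events and a mutually exclusive pair with the 180-base exon made up the 4 *SF1* events with an unadjusted p under 0.05 (limma). The pair had levels of 0, 0.009 and 0.046 in WT and of 0.073, 0.133 and 0.026 in MT. Of the 4 events, 3 share the same few exclusion reads.

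Where the 180-base exon was spliced in, the form of the last exon did not differ beyond the spread between libraries. The 205-base exon had levels of 0.363, 0.385 and 0.447 in WT against 0.436, 0.458 and 0.348 in MT, with 201 and 211 reads. Its inclusion reads hold the same reads of the junction leaving the 205-base exon as the event above. The events thus do not separate transcripts with and without the 180-base exon. The longer form of the last exon, the *SF1* event of intermediate level with the most reads, had levels of 0.638, 0.64 and 0.692 in WT against 0.639, 0.704 and 0.621 in MT, with means of 0.657 ± 0.0306 and 0.655 ± 0.0437 (SD, n = 3). The other 22 *SF1* events, all with an unadjusted p of 0.0912 or more, differed by -0.09 to 0.08. The lower end was a 29-base stretch at a 3′ site with levels of 0.455, 0.264 and 0.156 in WT against 0.173, 0.152 and 0.271 in MT, where WT alone spanned more than the difference.

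*U2AF2* encodes the large subunit of U2AF. Its 11 events had 279 to 1131 reads and differed by -0.009 to 0.02. The exclusive pair of exon 3, of 45 bases, and a 104-base exon had levels of 0.386, 0.456 and 0.314 in WT against 0.33, 0.452 and 0.432 in MT, with 879 and 792 reads. A 12-base alternative 5′ site had levels of 0.122, 0.148 and 0.229 in WT against 0.131, 0.187 and 0.153 in MT. In both, the libraries of one genotype spanned more than the difference between the genotypes.

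In *PUF60*, a 51-base exon, exon 5 of 12, was included at 0.435, 0.609 and 0.713 in WT and at 0.685, 0.703 and 0.569 in MT, with overlap and a difference of 0.07. An 84-base exon was included at 0.785, 0.726 and 0.861 in WT and at 0.707, 0.713 and 0.749 in MT, a difference of -0.07 (unadjusted p = 0.136, limma) with MT 3 between the WT libraries.

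*U2SURP* had the event without overlap that was smallest in size. Exon 25 of 28, of 111 bases, was included at 1, 0.997 and 0.997 in WT and at 0.993, 0.996 and 0.991 in MT, a difference of -0.005 with 1002 and 910 reads and an unadjusted p of 0.0914. Exon 27, of 177 bases, was included at 0.957, 0.826 and 0.893 in WT against 0.877, 0.894 and 0.764 in MT. A 3-base alternative 5′ site had levels of 0.509, 0.443 and 0.444 in WT against 0.479, 0.497 and 0.528 in MT. The last 2 events overlapped between the genotypes.

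**Figure D4:**
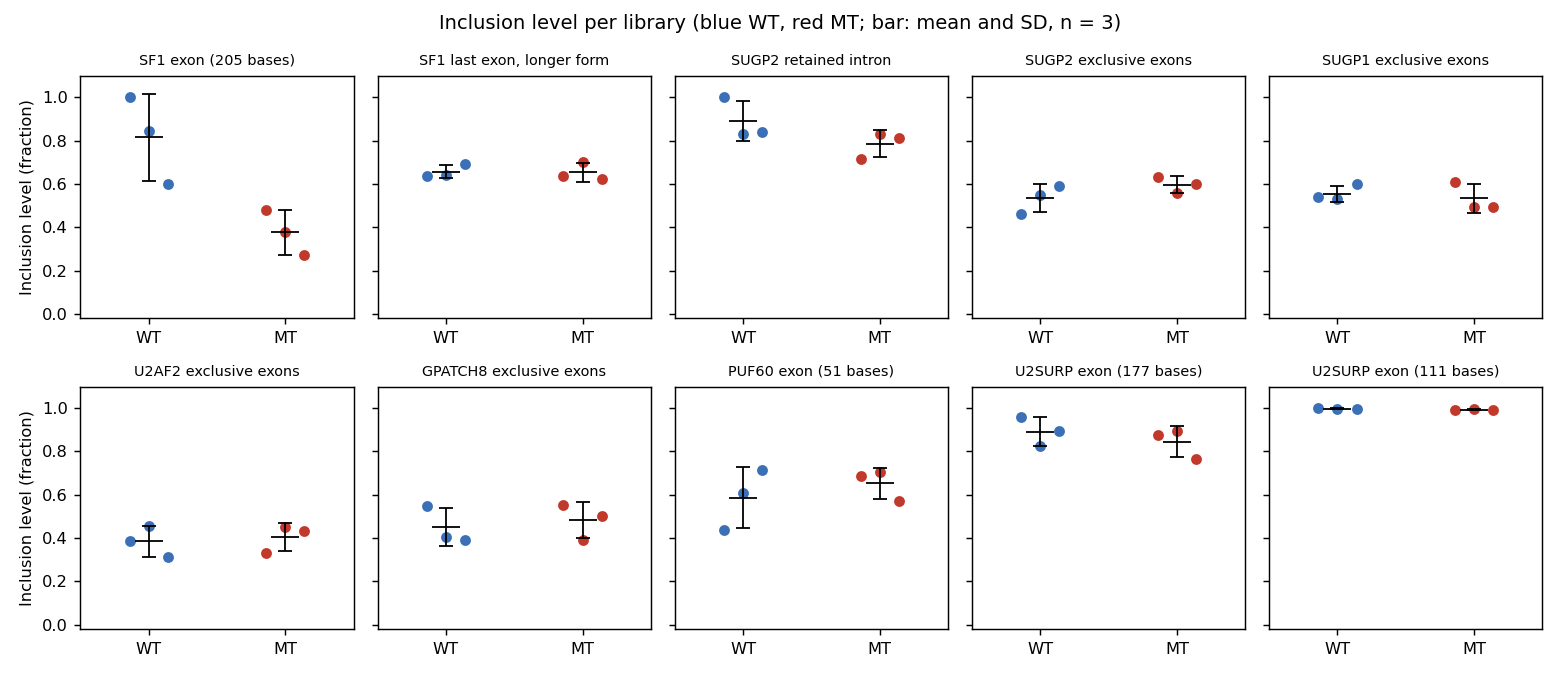
Inclusion level (fraction, y axis) of 10 events in the 3 WT (blue) and 3 MT (red) libraries, with mean and SD. The *SF1* exon of 205 bases is the panel in which the groups lie clearly apart (means of 0.815 and 0.378), the *SUGP2* retained intron and the 111-base *U2SURP* exon are apart by 0.001, and the points of the other panels overlap.

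Genes of the same machinery outside the group were examined in the same fit. Of 24 other genes of the U2 snRNP and of 3′ site recognition, 21 had events, and 0 of 234 events passed the test (limma). An unadjusted p under 0.05 was found for 9 (3.85%), and 10 were without overlap (4.27%). Of these 10, 3 also differed by more than 0.1, where 4 of the 104 events of the group and 1.73% of all events did. A retained intron of *SNRPA1*, a U2 snRNP protein, had levels of 0.714, 0.614 and 0.885 in WT against 0.5, 0.439 and 0.61 in MT, and one of *U2AF1L4*, a paralog of *U2AF1*, had 1, 1 and 1 in WT against 0.696, 0.768 and 0.91 in MT with 11.3 reads. In *CHERP*, a SURP and G-patch protein, the longer form of a 33-base alternative 3′ site had levels of 0.173, 0.115 and 0.1 in WT against 0.241, 0.194 and 0.321 in MT, higher by 0.12 (unadjusted p = 0.0218, adjusted p = 0.856, limma). Of 18 other G-patch genes, with *CHERP*, *RBM5* and *RBM10* on both lists, 0 of 136 events passed the test (limma). An unadjusted p under 0.05 was found for 6 (4.41%), and 4 were without overlap (2.94%). Only 1 of these 4, that of *CHERP*, differed by more than 0.1. Besides *CHERP*, a 272-base 3′ site of *RBM6* was higher by 0.08 in MT and a 27-base 5′ site of *ZGPAT* lower, with a difference of -0.06.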

How the data were processed

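RNA-Seq of 3 WT and 3 MT HEK293T libraries was analysed. The submitters' processing notes name STAR, StringTie and GRCh38, and the methods name the rMATS model; versions are not given in the sources used here. The authors' deposited inclusion levels are a fraction with 3 decimals, the length-scaled inclusion reads over both forms. The table lists 6 MT values for each event, of which 3 have a column and were used (the first, second and sixth listed, in all 114349 events). The other 3 were not used by themselves, but the authors' mean MT reads include them. Which of the 6 are the study's MT samples is not settled. Columns of the authors' own comparison (p-value, adjusted p-value, difference and a call) were not used, nor were junction counts per library, since some lists are run together. Depth is therefore given as mean junction reads (median 81.7 in WT and 82.7 in MT). The DRIP-Seq of the series was not analysed here.

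Levels were transformed (arcsine of their square root) and compared in R 4.3.3 by limma 3.58.1, with a variance trend on log mean reads and Benjamini-Hochberg adjustment over 83581 events with a level in all 6 libraries, at least 10 mean reads and levels that vary. A call needed a difference above 0.1 and an adjusted p under 0.05. The fit was also run on simulated data, with changes placed only in events of many reads and intermediate level. The outcome is not reported here, and the simulation did not cover changes in events of few reads. Named events were, for each gene, the largest difference without overlap, the event with the most reads among those with a WT mean from 0.1 to 0.9, and 3′ site events with a difference above 0.1; for the other gene lists, the 3 largest differences without overlap. Others with values were chosen after those were seen. The members, gene lists and rules were chosen with earlier results of these data known. Sequences are from the GRCh38 reference, with GENCODE 44 annotation. The alternatives were a logit transform (offset 0.01), other read minimums, other variance models, a replicate block, events of constant level kept, and each library left out. The correlation of deviations of same-numbered WT and MT libraries was 0.0997, 0.0974 and 0.0271.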

Additional observations from a re-analysis of the deposited data

How the results depend on the processing

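No event of the 10 genes or of the other gene lists was called under any alternative run, and the lowest adjusted p of the 10 genes ranged from 0.114 with a robust prior to 0.894 without WT 1 (limma, Benjamini-Hochberg). The number of called events in the whole table, 26, was 3 with a logit transform, 0 without the variance trend, 63 with a robust prior and 3 to 13 when a library was left out. With events of constant level kept it was 37, of which only 2 were among the 26, so which events of the whole table are called depends on that choice. With the replicate number as a block it was 12, and 8 events of the 10 genes had an unadjusted p under 0.05. The MT numbers are only the order of the deposited columns. The correlations of same-numbered libraries were all under 0.1, and the main fit did not treat the numbers as pairs. The number of events of the 10 genes with an unadjusted p under 0.05, 7, was 4 with events of constant level kept and ranged from 4 (without WT 1 or MT 2) to 12 (without WT 2). Events without overlap that differed by more than 0.1 numbered 3 to 7 with a library left out, where 3.06% to 4.49% of all events did so. The 7, without MT 3, were 6.93% of the events of the 10 genes beside 3.49% of all events, and the difference of these shares was not tested. The *SUGP1* differences at exon 5 stayed between -0.18 and -0.10 and that of the *SF1* exon between -0.55 and -0.35 with a library left out. The direction turned for events with no difference beyond the spread: the *SF1* last exon (-0.0267 to 0.0157 with a library left out, 0.00583 without MT 1, 0.0148 without MT 3), *U2AF2* (-0.0163 to 0.0567, -0.00433 without MT 2), *GPATCH8* (-0.0025 to 0.0832) and *PUF60* (-0.00867 to 0.13). With the authors' mean over all 6 listed MT values, chosen after seeing the data, MT levels were 0.0412 and 0.0392 for *SUGP1* at exon 5 and 0.424 for the *SF1* exon. Low-read events such as the *SF1* exon have a resolution of a few reads.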
